A study of Homo sapiens with 18 samples.

Results

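GR binding regions (GBR) called in cells depleted of both BRM and Hic-5 (siBRM/siHic5) were compared with those called in cells that received only nonspecific siRNA (siNS/siNS). The cells were U2OS-GRα, a human osteosarcoma line stably expressing transfected GRα, so that receptor levels came from an introduced gene in 1 engineered line. Both groups were transfected for 48 h and then received the synthetic glucocorticoid dexamethasone (dex, 100 nM) for 1 h before GR ChIP-seq, with 2 ChIP replicates and 1 input library in each group. The siBRM/siHic5 cells received siRNA against BRM and Hic-5, and the siNS/siNS cells received nonspecific siRNA in place of both. The study deposited 1 list per siRNA combination in which its 2 replicates were already pooled, so the values carried no spread between replicates, and all intervals below are 95% intervals that cover counting error over GBR only. Levels of BRM (SMARCA2) and Hic-5 (TGFB1I1) could not be checked from peak lists, and read depth per library was not in them.

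A siBRM/siHic5 GBR with no siNS/siNS GBR overlapping it by at least 1 bp is called additional here, and a siNS/siNS GBR with no siBRM/siHic5 GBR is called missing. The siBRM/siHic5 list held 3383 GBR and the siNS/siNS list 2582. Of the siBRM/siHic5 GBR, 1242 were additional, which is 36.7% (35.1 to 38.4%) of that list and the share of all GBR tested in that direction. Of the siNS/siNS GBR, 429 were missing, which is 16.6% (15.2 to 18.1%) of that list. The remaining 2141 siBRM/siHic5 GBR (63.3%) and 2153 siNS/siNS GBR (83.4%) were shared. The 2 lists together held 5965 of the 20642 GBR in the 6 lists of the series. Both counts depended on where the lists end. The 2582 strongest siBRM/siHic5 GBR against the siNS/siNS list gave 674 additional and 662 missing GBR. Lists of equal size must give nearly equal counts on both sides, so this setting cannot show which count is larger. A common end at a −log10 q-value of 14.2 gave 1896 and 96. That value is the end of the siBRM/siHic5 list itself, so of the 2 lists this setting shortened only siNS/siNS.

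GR is a ligand-activated transcription factor that binds DNA as a dimer at glucocorticoid response elements (GRE), or near other factors such as AP-1, which is formed by proteins of the FOS and JUN families. Much GR binding falls on chromatin that is already open, and remodeling enzymes can open sites further. BRM is an ATPase of the SWI/SNF remodeling complexes, CHD9 is a remodeler of a different family, and Hic-5 is a focal adhesion protein that also acts in the nucleus as a coregulator of steroid receptors. In these cells Hic-5 is known to keep GR and remodelers away from some sites, which are called blocked GBR.

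The sequences below are the 101 bases around the summits of GBR that show the forms found in both sets, on the plus strand of GRCh38, with GRE and AP-1 matches in capitals. A GRE match has both half-sites in the form GNACANNNTGTNC, and an AP-1 match reads TGANTCA, each searched on both strands. The first line is the strongest additional GBR, the next 3 are additional GBR with AP-1 matches, the fifth and sixth are missing GBR with GRE matches, and the last 3 are missing GBR with a run of 2 alternating bases at or beside the summit.
Additional, STAC2 intron, chr17:39222252-39222352: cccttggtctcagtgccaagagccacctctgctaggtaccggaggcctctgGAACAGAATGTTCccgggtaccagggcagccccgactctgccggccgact
Additional, between genes, EPHA3 nearest, chr3:90185077-90185177: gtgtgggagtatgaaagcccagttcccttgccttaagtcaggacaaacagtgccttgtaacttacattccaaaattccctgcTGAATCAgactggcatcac
Additional, between genes, GJD2 nearest, chr15:34682819-34682919: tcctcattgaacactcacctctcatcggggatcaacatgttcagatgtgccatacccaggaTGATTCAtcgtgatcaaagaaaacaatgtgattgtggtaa
Additional, RAI1 intron, chr17:17774280-17774380: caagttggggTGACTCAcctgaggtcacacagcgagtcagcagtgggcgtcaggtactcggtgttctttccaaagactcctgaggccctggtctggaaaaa
Missing, between genes, CDH26 nearest, chr20:60078801-60078901: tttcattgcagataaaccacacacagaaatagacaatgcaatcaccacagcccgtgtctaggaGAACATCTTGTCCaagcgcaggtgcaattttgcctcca
Missing, between genes, XAGE2 nearest, chrX:52425581-52425681: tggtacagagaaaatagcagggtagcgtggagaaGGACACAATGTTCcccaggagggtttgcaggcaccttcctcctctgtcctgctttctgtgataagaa
Missing, between genes, TMEM17 nearest, chr2:62412255-62412355: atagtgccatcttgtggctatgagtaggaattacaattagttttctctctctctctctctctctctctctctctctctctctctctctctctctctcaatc
Missing, between genes, ZFP36L2 nearest, chr2:43046764-43046864: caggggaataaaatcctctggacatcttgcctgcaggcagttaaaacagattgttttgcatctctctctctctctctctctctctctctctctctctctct
Missing, ARHGEF3 intron, chr3:56995629-56995729: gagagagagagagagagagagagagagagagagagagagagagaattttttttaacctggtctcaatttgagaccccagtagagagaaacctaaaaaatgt

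The 10 strongest additional GBR by −log10 p-value lay between ranks 308 and 672 of the siBRM/siHic5 list. The strongest was in an intron of STAC2, a muscle and neuronal adaptor protein gene (chr17:39222010-39222767). Its −log10 p-value was 109, its summit lay 3.64 kb from the transcription start site (TSS), and a GRE match lay 7 bp from the summit. No other of the 10 held a GRE match within 200 bp centred on the summit, while 4 held an AP-1 match. These 4 were the GBR 1080 kb from the TSS of the ephrin receptor gene EPHA3 (−log10 p-value 76.0), the one 72.1 kb from the connexin gene GJD2 (73.2), one in an intron of the transcriptional regulator gene RAI1 (66.8) and one in an intron of PITPNC1, a phosphatidylinositol transfer protein gene (66.7). The remaining 5 lay in a non-coding exon part of ODF3L2 (74.7), 530 kb from TBC1D22A (72.1), in an intron of the septin gene SEPTIN9 (70.5), 63.4 kb upstream of the glypican gene GPC1 (68.7), and in an intron of FGR, which encodes a Src-family kinase (66.9). All 10 were also called in siHic5/siNS, 7 in siCHD9/siHic5, 5 in siCHD9/siNS and 2 in siBRM/siNS.

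The 10 strongest missing GBR lay between ranks 283 and 874 of the siNS/siNS list. The strongest, chr20:60078524-60079125, lay 120 kb from the cadherin gene CDH26 and had a −log10 p-value of 56.3, with a GRE match 19 bp from the summit. The next lay 93.9 kb from TMEM17, a cilium protein gene (44.7), and in an intron of RPRD1B, whose protein binds RNA polymerase II (36.2). The others, with −log10 p-values from 33.1 to 28.2, included GBR nearest to LRATD2, the mRNA decay gene ZFP36L2, the cathepsin gene CTSL, the melanin-concentrating hormone receptor gene MCHR1, XAGE2 and SPATA12, the last within an intron of the guanine nucleotide exchange factor gene ARHGEF3. All 10 missing GBR were called in siHic5/siNS, 8 in siCHD9/siHic5 and 7 in siBRM/siNS. For reference, the strongest shared GBR, in an intron of HIF3A, had a −log10 p-value of 451 in the siBRM/siHic5 list, and the third, in an intron of the GR co-chaperone gene FKBP5, had 405.

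The other 4 lists were then used to ask where else the additional and missing GBR were called. Of the 1242 additional GBR, 1189 (95.7%, 94.5 to 96.7%) were also called with Hic-5 depleted alone (siHic5/siNS), 408 (32.9%) in siCHD9/siHic5, 121 in siCHD9/siNS and 31 (2.50%, 1.76 to 3.52%) in siBRM/siNS. For 759 of them (61.1%), siHic5/siNS was the only other list. Only 45 (3.62%) were in no other list, the best of them at rank 1555. The shared GBR had wider presence in the other 4 lists. All 4 held 890 of 2141 shared GBR (41.6%) and 7 of 1242 additional GBR (0.564%). Of the missing GBR, 357 of 429 were called in siHic5/siNS, 79 in siCHD9/siHic5, 39 in siBRM/siNS and 26 in siCHD9/siNS, and 61 (14.2%) were called in no list other than siNS/siNS. The plot of presence shows the siBRM/siNS list as the one in which additional GBR were rarest. The siBRM/siNS list was also the shortest of the 6, with 1278 GBR against 9533 in siHic5/siNS, and the part of list size in these shares was not tested.

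**Figure D1:**
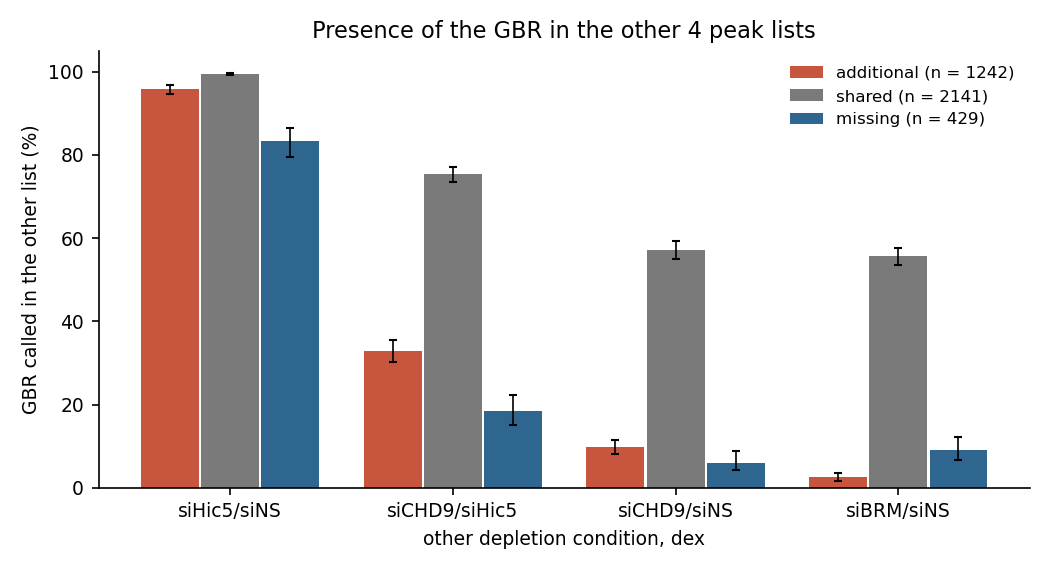
Share of additional (n = 1242), shared (n = 2141, counted on the siBRM/siHic5 list) and missing (n = 429) GBR that overlapped a GBR of each of the other 4 lists, in percent, with 95% Wilson intervals over GBR. Additional GBR were at 95.7% in siHic5/siNS and at 2.50% in siBRM/siNS.

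Additional GBR were among the weaker GBR of their list, a description of the same calls that defined them. Their median −log10 p-value was 23.5 (quartiles 20.3 and 29.9, highest 109), while shared GBR of the same list had 44.9 (29.6 and 76.7, highest 451). Additional GBR made up 1 of the 339 strongest siBRM/siHic5 GBR (0.295%) and 256 of the 339 weakest (75.5%), with a higher share in each successive one of 10 equal strength groups. They were 455 bp wide at the median, and shared GBR 555 bp. Missing GBR showed the same order, from 0 of 259 in the strongest group of the siNS/siNS list, which allows a share of up to 1.46% (Wilson), to 106 of 259 (40.9%) in the weakest, with a median −log10 p-value of 15.2 against 24.0 for shared GBR. The 100 strongest GBR of each list all had a partner in the other list, and among the 1000 strongest, 47 siBRM/siHic5 and 21 siNS/siNS GBR had none. Across the 2141 shared siBRM/siHic5 GBR, the ranks in both lists had a Spearman correlation of 0.70 across regions, which are not replicates.

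**Figure D2:**
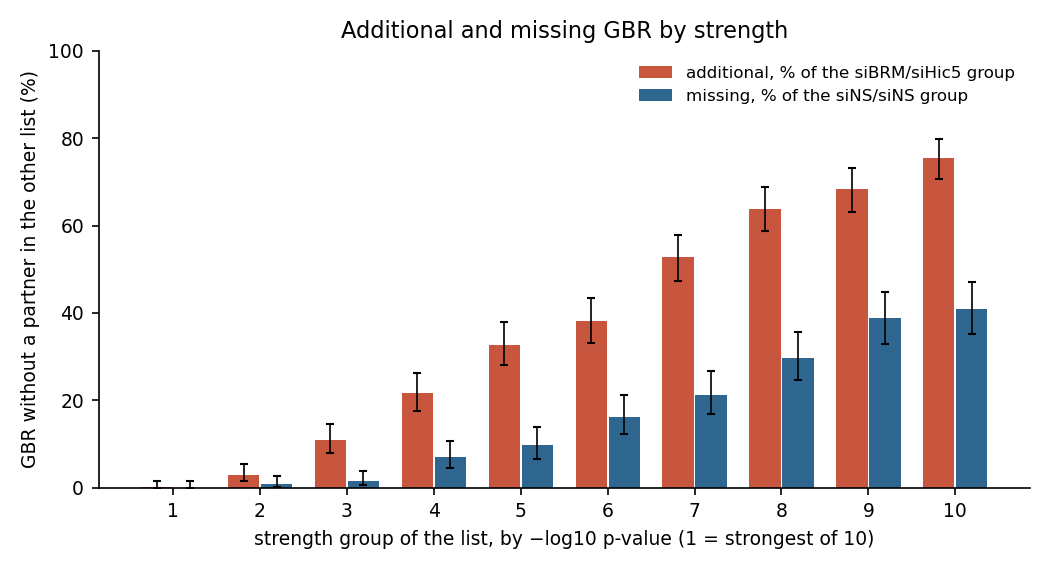
Share of GBR without a partner in the other list, in percent, in 10 equal groups of the list ranked by −log10 p-value (1 is the strongest), with 95% Wilson intervals over GBR. The shares go from 0.295% to 75.5% for additional GBR and from 0 to 40.9% for missing GBR.

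The lists ended at different strengths. The lowest −log10 q-value was 14.2 in siBRM/siHic5 and 8.88 in siNS/siNS, and the other 4 lists ended between 7.26 and 8.91. Of the 429 missing GBR, 333 (77.6%) had a −log10 q-value under 14.2, a strength at which the siBRM/siHic5 list held no GBR at all. At or above 14.2, 96 of 1589 siNS/siNS GBR (6.04%, 4.97 to 7.32%) were missing, and under it 333 of 993 (33.5%, 30.7 to 36.5%) were. A −log10 q-value also depends on read depth, so equal values in the 2 lists need not mean equal occupancy. Of the 96 stronger missing GBR, 77 were called in siHic5/siNS, 32 in siCHD9/siHic5, 22 in siBRM/siNS and 12 in siCHD9/siNS, and 12 in no other list. Absence from a list is absence of a call, and GR occupancy under the end of a list was not measured here.

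The sequence under the summits was not used to define the sets and differed between them. AP-1 matches within 200 bp were found at 410 of 1242 additional GBR (33.0%, 30.5 to 35.7%), 535 of 2141 shared GBR (25.0%, 23.2 to 26.9%) and 62 of 429 missing GBR (14.5%, 11.4 to 18.1%). GRE matches had another order, at 195 additional (15.7%, 13.8 to 17.8%), 614 shared (28.7%, 26.8 to 30.6%) and 91 missing GBR (21.2%, 17.6 to 25.3%). Windows of the same length centred 5 kb to either side of the summits held an AP-1 match in 5.64 to 6.59% and a GRE match in 0.233 to 0.374% for the same 3 sets. Additional GBR thus had AP-1 matches 8.02 percentage points more often than shared GBR (4.85 to 11.2) and GRE matches 13.0 points less often (difference −13.0, −15.7 to −10.1). Relative to shared GBR of the siNS/siNS list, missing GBR differed by −10.2 points for AP-1 (−13.8 to −6.16) and by −7.77 points for GRE (−11.9 to −3.25).

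**Figure D3:**
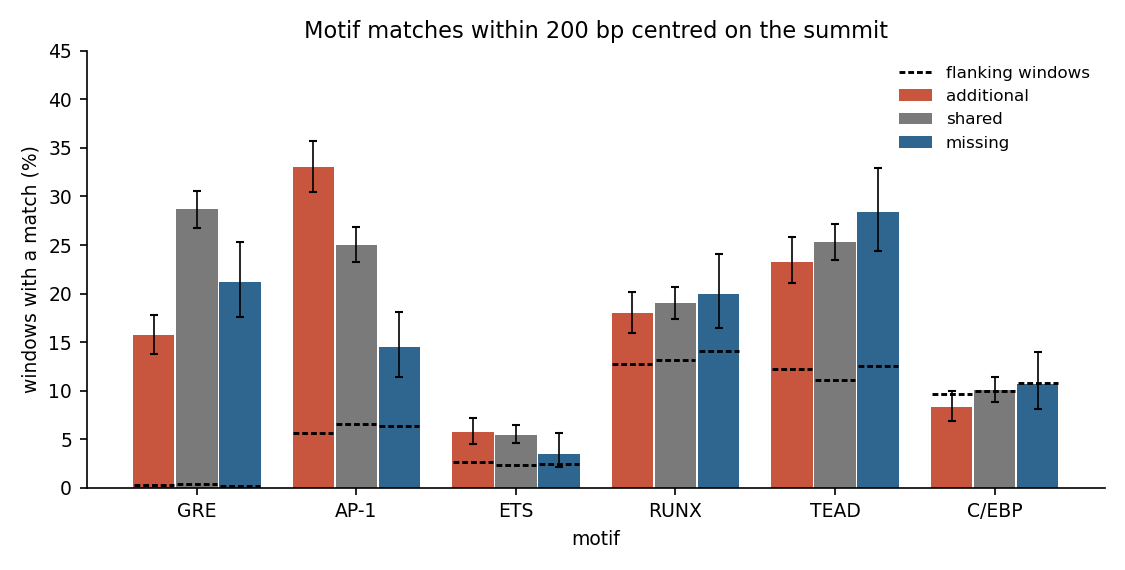
Share of 200-bp summit windows with a match to each of 6 motifs, in percent, for additional, shared (siBRM/siHic5 list) and missing GBR, with 95% Wilson intervals over GBR. Dashed lines give the share in windows 5 kb away. AP-1 was at 33.0%, 25.0% and 14.5% in the 3 sets and GRE at 15.7%, 28.7% and 21.2%.

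Within strength groups the AP-1 difference of the additional GBR was larger. The groups match strength only roughly, since the strongest ran from a −log10 p-value of 56.2 to 451 and additional GBR reached 109. With each list split into 4 equal groups by −log10 p-value, 53.6% of the 28 additional and 29.6% of the 818 shared GBR of the strongest siBRM/siHic5 group held an AP-1 match, and in the weakest group 29.2% of 602 and 19.3% of 244 did. The 4 differences went from 24.0 points in the strongest group to 9.97 in the weakest. Their mean was 16.3 points (10.9 to 21.4), which weights the group with 28 additional GBR like the one with 602. For GRE the 4 differences ran from −26.5 to −8.57 points, with −26.5 in the group with 28 additional GBR. Missing GBR had fewer AP-1 matches than shared GBR in each of the 4 siNS/siNS groups, although the strongest group held only 3 of them, and the interval of the mean over the groups, −13.8 points, reached 0 (−17.1 to 0.850). For missing GBR the mean GRE difference over the groups was −3.64 points (−11.4 to 8.71), so a GRE difference within strength groups was not shown. Among the siNS/siNS GBR at or above a −log10 q-value of 14.2, a set formed after seeing the data, the AP-1 difference of missing GBR was −10.9 points (−16.6 to −2.59) and the GRE difference was −6.41 points (−14.4 to 3.37).

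**Figure D4:**
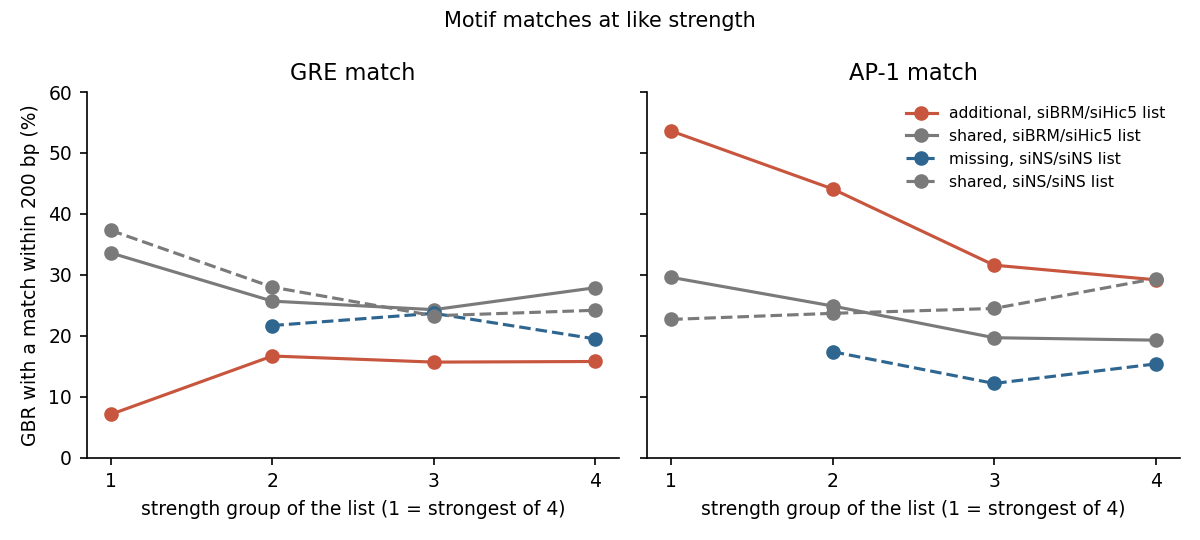
Share of GBR with a GRE (left) or AP-1 (right) match within 200 bp, in percent, in 4 equal groups of each list ranked by −log10 p-value (1 is the strongest). Solid lines are sets of the siBRM/siHic5 list and dashed lines sets of the siNS/siNS list, and the 3 missing GBR of the strongest group are not drawn. In the strongest group AP-1 was at 53.6% of additional and 29.6% of shared GBR.

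In combination, 366 additional GBR (29.5%) held AP-1 without GRE, against 19.6% of shared and 12.6% of missing GBR. GRE without AP-1 was found at 12.2% of additional, 23.3% of shared and 19.3% of missing GBR. Neither motif was found at 681 additional (54.8%), 1107 shared (51.7%) and 284 missing GBR (66.2%). The best approach to the 12 fixed bases of the full GRE had on average 3.52 ± 1.13 mismatches (SD over 1242 GBR) at additional, 3.14 ± 1.16 at shared (n = 2141) and 3.42 ± 1.10 at missing GBR (n = 429). GRE matches sat close to the summit in every set, at a median of 17 bp for additional, 13 bp for shared and 19 bp for missing GBR that had one within 1 kb. AP-1 matches sat further out, at 74, 96.5 and 138 bp. In the plot of match positions, AP-1 matches per 100 shared GBR were lower in the bin at 10 bp from the summit (2.48) than at 30 bp (3.92). For additional GBR the same bins had 3.95 and 4.35 per 100, from 49 and 54 matches, so a dip at the summit was not shown for them.

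**Figure D5:**
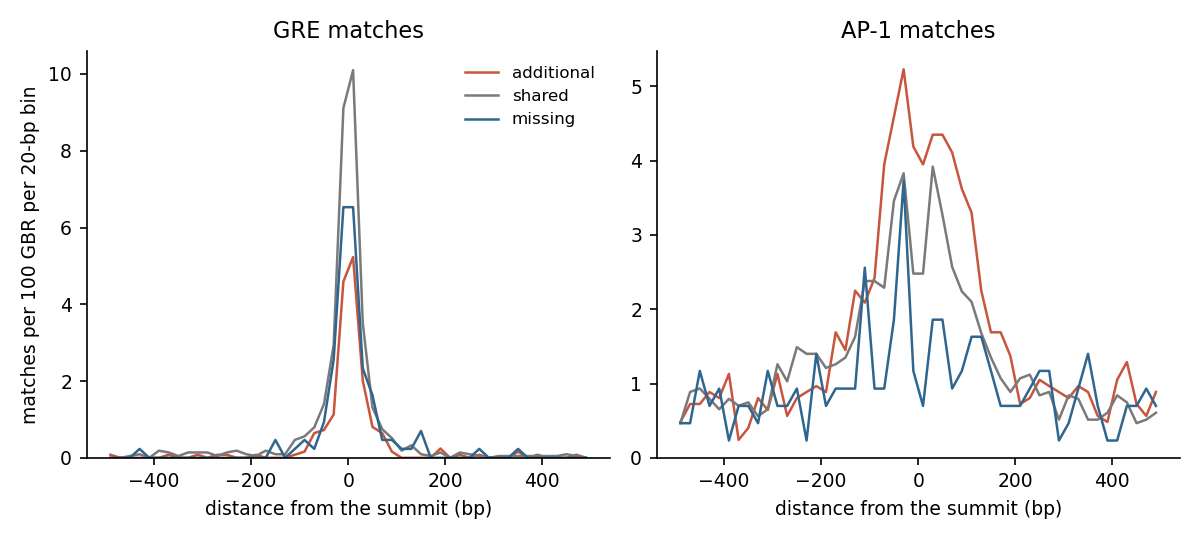
Matches of GRE (left) and AP-1 (right) per 100 GBR in 20-bp bins by distance from the summit, in bp, for additional, shared (siBRM/siHic5 list) and missing GBR. GRE reached 5.23 per 100 in the highest bin of additional and 10.1 in that of shared GBR.

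Of the 14 motifs searched, 5 differences in all had intervals that excluded 0 after widening for the 28 comparisons. They were GRE and AP-1 in both sets, and the GR half-site TGTTCT in additional GBR (32.9% against 40.6% of shared). Half-site matches that overlap a GRE match were counted too, so this difference is not separate from the GRE difference. The forkhead motif TGTTTAC was at 2.50% of additional and 4.02% of shared GBR, and CCAAT at 22.8% of missing and 18.4% of shared GBR, and neither excluded 0 after widening. The ETS motif CNGGAAGT was at 5.72% of additional, 5.46% of shared and 3.50% of missing GBR. The ETS difference of additional GBR was 0.252 points (−1.31 to 1.94) and that of missing GBR −1.80 points (−3.51 to 0.559). The shorter form CNGGAA gave −6.41 points (−9.88 to −2.94) for additional GBR, so whether ETS differed depended on the pattern. RUNX and TEAD motifs were above their flanking level in all 3 sets, with differences from shared GBR between −1.92 and 3.08 points whose intervals included 0. Mean GC content was 51.0 ± 9.71% (SD) at additional, 51.2 ± 9.23% at shared and 48.1 ± 8.96% at missing GBR.

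Among the additional GBR, AP-1 matches were more frequent where GR was also called after double depletion of Hic-5 and CHD9. Of the 408 additional GBR present in siCHD9/siHic5, 194 (47.5%) held an AP-1 match, and of the other 834, 216 (25.9%) did, a difference of 21.6 points (15.9 to 27.3). GRE matches were at 14.7% and 16.2% of these (difference −1.48, −5.57 to 2.95). The 408 were also stronger, with a median −log10 p-value of 27.8 against 22.4. The 31 additional GBR that were also called in siBRM/siNS held a GRE in 11 cases and an AP-1 match in 9. The siHic5/siNS list gave a second view of AP-1, because it held GBR outside the siNS/siNS list that were or were not called with BRM depleted as well. These GBR are called blocked here by the absence of an overlapping siNS/siNS call alone. The smaller blocked set on which the study based its remodeler results also required a significant change in GR binding above a fold cutoff. The shares below are thus not those of that set. Of these 7059 blocked GBR, 1182 (16.7%) were called in siBRM/siHic5 and 5877 were not, and AP-1 matches were at 33.8% and 23.4% of them (difference 10.5 points, 7.60 to 13.4). Those called were stronger in siHic5/siNS, at a median rank of 2968.5 of 9533 against 6387. In the strongest of 10 groups of the siHic5/siNS list, 46 of 50 blocked GBR (92.0%) were called, and in the weakest 33 of 937 (3.52%). The siBRM/siHic5 list ended at a −log10 q-value of 14.2 and the siHic5/siNS list at 8.91, so the 16.7% also depends on where the lists end. Within 4 strength groups of the siHic5/siNS list the AP-1 difference lay between 6.27 and 15.5 points. GRE matches differed by 1.84 points (−0.318 to 4.18) and C/EBP matches by −4.01 points (8.04% against 12.0%, −5.67 to −2.14). The additional and the blocked GBR were both defined against the same siNS/siNS list, and the blocked GBR called in siBRM/siHic5 are nearly the same regions as the additional GBR called in siHic5/siNS, so the second view is not independent of the first.

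Of the 10 strongest missing GBR, 4 had a run of repeated bases in the 200-bp window, such as the alternating c and t across the summit near TMEM17 and beside the summit near ZFP36L2 shown above, which led to a count of such runs after the sequences were seen. A run was counted where 1 base was repeated at least 12 times or a pair of bases at least 8 times. Runs were found at 28 of 429 missing GBR (6.53%, 4.55 to 9.27%), 58 of 2141 shared GBR (2.71%, 2.10 to 3.49%) and 19 of 1242 additional GBR (1.53%, 0.982 to 2.38%). The windows 5 kb away held runs in 4.78 to 5.96% for these sets. Of the 39 missing GBR that were also called in siBRM/siNS, 11 (28.2%) held a run, and 3 held a GRE. The 4 GBR that prompted the count are among these 11 and among the 28, which raises both shares. Reads over such runs are harder to place, and whether mapping bears on these calls was not tested. Without the GBR that hold a run, the AP-1 difference of missing GBR was −10.2 points and the GRE difference −7.45 points.

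The position of the GBR relative to genes was alike in the 3 sets. Summits were in introns of protein-coding genes at 42.2% of additional, 42.3% of shared and 40.6% of missing GBR, and between genes at 52.3%, 52.5% and 55.7%. Within 1 kb of a TSS lay 48 additional (3.86%, 2.93 to 5.09%), 95 shared (4.44%, 3.64 to 5.39%) and 13 missing GBR (3.03%, 1.78 to 5.11%). Median distances to the nearest TSS were 50.7, 52.1 and 58.8 kb. Of the additional GBR, 143 (11.5%) lay within 10 kb of a siNS/siNS GBR and 458 (36.9%) within 100 kb, with a median distance of 184 kb. Of the missing GBR, 73 (17.0%) lay within 10 kb of a siBRM/siHic5 GBR and 199 (46.4%) within 100 kb, with a median of 119 kb. How near random positions would lie was not computed.

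Of 20046 protein-coding genes, 1051 had at least 1 additional GBR within 50 kb of the TSS, a background of 5.24%, and 319 had at least 1 missing GBR, a background of 1.59%. A shared GBR lay within that distance of 1686 genes, a background of 8.41%. Of the 1051 genes, 770 had no siNS/siNS GBR within that distance, and 6 of these had 3 or more additional GBR. The most were at GRAMD4, with 4 GBR, all called in siHic5/siNS as their only other list. Their −log10 p-values were 24.4, 30.5, 41.5 and 34.8, and 3 of them lay between 11.0 and 15.2 kb downstream of the TSS. FMNL1, a formin gene that acts on actin filaments, had 3 (43.4, 21.0 and 50.8), the last with an AP-1 match. IRF2BPL had 3 between 9.59 and 22.7 kb upstream (41.1, 27.5 and 26.7), all also called in siCHD9/siHic5. B9D1, MFAP4 and MAPK7, which encodes the kinase ERK5, share 1 locus on chromosome 17 and the same 3 GBR (19.4, 24.5 and 18.6), of which the last lay 0.180 kb from the TSS of the microfibril gene MFAP4. In all, 50 of the 770 genes had at least 2, and of those with exactly 2 the first by alphabet were ADNP2, AHDC1, AP3S1 and ATG12. The AP3S1 and ATG12 GBR were the same, 1 of them 0.713 kb downstream of the AP3S1 TSS. Of the 319 genes with missing GBR, 190 had no siBRM/siHic5 GBR within 50 kb. Those with 2 included DPP4, a cell-surface peptidase gene (−log10 p-values 13.9 and 12.7), the AP-1 subunit gene FOSL2 (16.1 and 13.4), KIF25 (16.7 and 12.8) and MAL (13.6 and 13.3). The siNS/siNS list ended at a −log10 p-value of 12.6, so most of these GBR were among its weakest.

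Gene groups were read against these backgrounds (5.24% for additional, 1.59% for missing and 8.41% for shared GBR) and carry no test. Intervals on counts this small are wide. Shared GBR also had intervals above their background at classic targets, inflammation brakes (30.0%), AP-1 subunit (37.5%), clock (23.5%), TGF-β (25.0%) and survival genes (23.5%). A raised share in these groups was therefore not particular to additional GBR. In the other groups the interval of the shared GBR included the background. Among 30 classic glucocorticoid targets, 18 had a shared GBR within 50 kb, 5 had an additional GBR (16.7%, 7.34 to 33.6%) and 4 a missing one (13.3%, 5.31 to 29.7%). TSC22D3, which encodes the anti-inflammatory protein GILZ, had 1 additional GBR in its intron (chrX:107741735-107742152, −log10 p-value 23.4) and no shared GBR within 50 kb. The growth arrest gene GADD45A also had 1 additional GBR (18.1) and no shared one. The clock gene PER1 had an additional GBR 0.484 kb from its TSS (28.4) beside 1 shared GBR, and the MAPK phosphatase gene DUSP1 had one 24.4 kb upstream with an AP-1 match (40.8) beside 1 shared GBR. ZFP36, a gene for an mRNA decay factor, had 1 additional GBR 4.83 kb downstream (18.5), 1 missing GBR 4.17 kb upstream (13.8) and 2 shared GBR. Classic targets with missing GBR also included the transcription factor gene KLF9 (14.4) and ERRFI1, an inhibitor of EGF receptor signaling (26.0), and each of these kept at least 1 shared GBR within 50 kb.

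In the group of 20 inflammation brakes, 5 genes had an additional (25.0%, 11.2 to 46.9%) and 2 a missing GBR (10.0%, 2.79 to 30.1%). They included ZFP36L1, a further mRNA decay gene, with 2 additional GBR (30.2 each, both with AP-1 matches), and IL1RN, the interleukin-1 receptor antagonist gene, with 1 (20.8). SOCS3, a brake on cytokine receptors, had 1 missing GBR (12.9) and no shared one. Of 20 cytokine and chemokine genes, 4 had an additional (20.0%, 8.07 to 41.6%) and 2 a missing GBR (10.0%, 2.79 to 30.1%). CSF2, the GM-CSF gene, had an additional GBR with an AP-1 match that was also called in siCHD9/siHic5 and siCHD9/siNS (23.0), and CXCL3 had 1 with both AP-1 and GRE matches (18.0). LIF had 2 additional (25.8 and 21.4), 1 missing (16.3) and 5 shared GBR. CCL20 had 1 additional beside 2 shared GBR, and CXCL1 had 1 missing GBR (16.1).

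Of 16 AP-1 subunit genes, 4 had an additional GBR (25.0%, 10.2 to 49.5%). FOS and JUND had 1 each with no shared GBR near them, at 23.1 kb from the FOS TSS (18.5, with a GRE match) and 0.316 kb upstream of the JUND TSS (21.4), and FOSB (19.3) and MAFK (23.2) had 1 each beside a shared one. FOSL2 had 2 missing GBR, as given above. Of 17 ETS factor genes, 1 had an additional GBR (5.88%, 1.05 to 27.0%), near the background of 5.24%. It lay 0.836 kb downstream of the TSS of the repressor gene ERF (30.7). None had a missing one, which allows a share of up to 18.4%, above the background of 1.59%. Of 17 circadian clock genes, 2 had an additional (11.8%, 3.29 to 34.3%) and 1 a missing GBR (5.88%, 1.05 to 27.0%). They were PER1 and NR1D2, which encodes REV-ERBβ, with 1 additional GBR each, and BHLHE40 with 1 missing GBR. Of 28 remodeler and GR coregulator genes, 2 had an additional (7.14%, 1.98 to 22.6%) and 1 a missing GBR (3.57%, 0.633 to 17.7%), with the backgrounds inside both intervals. CHD9 itself had an additional GBR in its intron, 36.1 kb downstream of the TSS (49.6), and the coactivator gene NCOA3 had 1 missing GBR (13.4).

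Of 26 integrin and focal adhesion genes, the compartment in which Hic-5 also resides, 5 had an additional GBR (19.2%, 8.51 to 37.9%) and 3 a missing one (11.5%, 4.00 to 29.0%). The additional GBR were at PXN, the gene of the Hic-5 relative paxillin (54.6), the adaptor gene BCAR1 (39.2, with an AP-1 match), the integrin genes ITGA5 (23.8) and ITGB1 (18.4, with an AP-1 match), and 0.188 kb upstream of the zyxin gene ZYX (22.4). The missing GBR were at ITGA2 (26.5), the actinin gene ACTN1 (19.1) and PXN (15.3), so PXN had 1 of each, at 28.2 and 2.93 kb downstream of its TSS. Of 24 TGF-β signaling genes, 4 had an additional GBR (16.7%, 6.68 to 35.9%) and 0 a missing one, which allows a share of up to 13.8%. These 4 were the SMAD corepressor gene SKI (44.9), PMEPA1 (24.8), TGFB1 (23.5) and the inhibitory SMAD6 (19.4). Of 18 collagen genes, 4 had an additional GBR (22.2%), with an interval that lay above the background of 5.24% and reached 45.2%. None had a missing one, which allows a share of up to 17.6%. A shared GBR lay within 50 kb of 3 of them (16.7%, 5.84 to 39.2%), with the background of 8.41% inside the interval. The additional GBR were at COL13A1 (33.6), COL6A2 (20.5), COL18A1 (18.5) and COL5A1 (17.8), 1 each, between 32.5 and 49.1 kb upstream. Of 17 survival genes, 4 had an additional (23.5%, 9.56 to 47.3%) and 2 a missing GBR (11.8%, 3.29 to 34.3%). The proapoptotic gene BAK1 had 2 additional GBR (23.0 and 19.3) and BBC3 had 1 (27.2). The neighbours BIRC2 and BIRC3 shared 1 additional (20.8) and 1 missing GBR (15.1), each with a GRE match. None of 24 osteoblast differentiation genes had an additional or missing GBR within 50 kb, which allows a share of up to 13.8% for each. A shared GBR lay within that distance of 2 of them (8.33%), near the background of 8.41%.

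Among 6 genes whose GBR the study used as representatives, RP1L1 had 1 additional GBR within 100 kb, in its own intron 31.4 kb from the TSS (22.4), with an AP-1 match and also called in siHic5/siNS and siCHD9/siHic5. The study reports that the GBR nearest to the RP1L1 TSS was no longer called after either double depletion. The GBR described here was called in both. Whether it is the GBR that the study describes was not checked, since siHic5/siNS GBR nearer to the TSS were not searched for. MSX2 and SCNN1A had 2 shared GBR each and IGFBP1 and SPINK13 had 1 each, with no additional or missing GBR, and ANO2 had no GBR of either list within 100 kb.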

How the data were processed

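GR ChIP-seq was done in 12 ChIP and 6 input libraries over 6 siRNA combinations. Per the study's methods, the authors trimmed single-end reads, aligned them to GRCh38/hg38 with BWA, discarded duplicates and mitochondrial reads, and called peaks by MACS2 within the IDR framework. Versions are not given in the sources used here. The deposited lists hold, for 2 pooled replicates, a signal value, a −log10 p-value, a −log10 q-value (kept as a score beside the p-value) and a summit. The signal value deposited by the authors was not used for comparison because its scale is not settled by the sources. No column belonged to samples of another series (0 columns).

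Lists were read with Python 3.11.15 and pandas 2.3.3, sequence with pysam 0.24.0 from hg38, and genes from GENCODE release 44. GBR were shared at an overlap of at least 1 bp. Motifs were searched in 200 bp centred on the summit. Shares have 95% Wilson intervals and differences Newcombe intervals. Overlap, motif and interval code was tested on simulated data. The GBR sets, gene lists and motifs were chosen with earlier results of these data known. Named items were the 10 strongest additional and missing GBR, 3 strongest shared GBR, up to 10 genes with most additional or missing GBR and none of the other list, members of 12 gene lists with such GBR, and 6 representative genes. Sequence on chromosome 8 is not printed, and some items that the naming rule selects are not reported here. Alternative overlaps, list ends, windows, patterns and TSS distances were tried. Depth per library and replicate spread are not in the lists, so no test over samples was made. Input libraries were not analysed separately.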

Additional observations from a re-analysis of the deposited data

How the results depend on the processing

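The 1242 additional and 429 missing GBR moved little with the overlap rule, to between 1228 and 1309 and between 422 and 508. They depended on where the lists end. With all lists cut at a −log10 q-value of 14.2 there were 1896 additional and 96 missing GBR. That value is the end of the siBRM/siHic5 list, so all its 3383 GBR stayed and the siNS/siNS list was cut to 1589. The count of 96 against the whole siBRM/siHic5 list is therefore the same comparison. A cutoff of 20 gave 62 missing GBR. The 1000 strongest GBR of each list gave 256 and 251, and equal list sizes gave 674 and 662. Lists of equal size must give nearly equal counts on both sides, so these settings cannot show which count is larger. In 1 kb or 100 bp windows the GRE and AP-1 differences kept their direction and excluded 0. Over 4 strength groups, the missing GBR differed by −3.64 points for GRE and −13.8 points for AP-1, with intervals reaching 0, and at or above 14.2 (added after seeing the data) by −6.41 points for GRE. The strongest group held 3 missing GBR. The shorter ETS pattern turned the ETS difference of additional GBR to −6.41 points. The cause of these changes was not tested. Genes with an additional GBR numbered 245 within 10 kb and 2098 within 100 kb, and those with a missing GBR 68 and 601. No paired analysis was possible because each list pools its 2 replicates, and for the same reason no replicate could be left out.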
